A study of Mus musculus with 2 samples.

Results

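T cells and natural killer (NK) cells were a rare population of 66 barcodes among 13677 filtered barcodes from adherent mouse marrow, 32 in the wild-type (WT) library and 34 in the conditional knockout (cKO) library. A barcode marks the RNA of 1 droplet, and a unique molecular identifier (UMI) marks 1 captured RNA molecule. A barcode was taken as a T or NK cell when it carried a UMI of at least 3 of the 8 genes Cd3e, Cd3d, Cd3g, Trbc1, Trbc2, Nkg7, Gzma and Ncr1. It also had to have a macrophage score (Csf1r, Adgre1, C1qa, C1qb, C1qc, Mrc1, Ctss and Cd68) under 20 and a stromal score (Col1a1, Col1a2 and Sparc) under 60 per 10000 UMIs. These genes therefore describe the cells and cannot test what they are.

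The cultures were started from long bone marrow of C57BL/6J animals in medium with 10% serum, and everything still floating at 48 h was discarded. Both genotypes were Slc31a1 flox/flox, which carries the copper importer gene between recombination sites. WT mice were littermates without Cre, and cKO mice also carried Prrx1-Cre+/-, a driver active in limb bud mesenchyme and its descendants rather than in blood cells. No drug, diet or osteogenic induction was applied, each genotype was 1 library, and the sources used here give no age, sex or number of mice pooled. The labels name the cells mesenchymal stem cells, whereas the 66 barcodes carried lymphocyte transcripts.

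T cells recognise antigen through a receptor of alpha and beta or of gamma and delta chains, which signals through the CD3 chains. NK cells have no such receptor and read activating and inhibitory receptors such as NKp46, encoded by Ncr1, and the Klr family. Marrow holds memory T cells, innate-like T cells and NK cells, which respond to cytokines made by stromal and myeloid cells.

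The deposited libraries held 9125 WT and 6140 cKO barcodes with medians of 7919 and 8217 UMIs, and 11 barcode sequences occurred in both libraries, none of them a T or NK cell. Barcodes of the stromal rule, defined by a stromal score of at least 60, made up 48.4% of filtered WT and 28.7% of filtered cKO barcodes. The targeted gene, Slc31a1 (chr4:62360727-62391769 in GRCm38), had 42.7 UMIs per 1000000 in stromal-rule barcodes of the WT library and 15.1 in those of the cKO library. In macrophage-rule barcodes its levels were 69.3 and 72.6 UMIs per 1000000. Prrx1, the gene whose promoter drives the Cre, had 444 UMIs per 1000000 in stromal-rule barcodes and 23.1 in T and NK cells, 9 UMIs in 9 barcodes. T and NK cells held 3 Slc31a1 UMIs in 2 WT barcodes and 9 in 5 cKO barcodes, too few to compare.

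T and NK cells were 0.392% of filtered WT barcodes (32 of 8171, exact Clopper-Pearson 95% interval 0.268 to 0.552) and 0.618% of filtered cKO barcodes (34 of 5506, 0.428 to 0.862). These intervals, and all others here, cover counting error only, compare 2 libraries rather than genotypes, and leave out differences between mice and cultures. The number of barcodes was alike in the libraries, and the denominator was not. Among barcodes under the stromal limit alone, the shares were 0.852% in WT (32 of 3758) and 0.905% in cKO (34 of 3756).

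Members had a median of 4541.5 UMIs in WT (1884 to 16835) and 5049 UMIs in cKO (2255 to 44720). Mitochondrial UMIs had medians of 2.48% and 2.68%. By number of rule genes, 19 members had 3, 13 had 4, 20 had 5, 13 had 6 and 1 had 7. Just outside the rule lay 32 barcodes with 2 rule genes, of which 26 carried at least 5 of 9 lymphocyte genes that the rule did not use (Ptprc, Skap1, Cd226, Il2rb, Cxcr6, Ikzf3, Txk, Prkcq and Il18r1). Of the members, 18 of the 19 with 3 rule genes and all 47 with 4 or more carried at least 5 of those 9 genes, with a median of 8 in both sets against 7 outside. Another 8 barcodes had at least 3 rule genes and were left out by a score, 7 with macrophage scores of 33.1 to 69.3 and 1 with a stromal score of 81.5. The highest scores inside were 11.4 and 27.3.

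T cell receptor chains and CD3 set the largest group. The 3 CD3 genes lie in 40056 bases of chromosome 9 (chr9:44969572-45009627), and 49 of 66 barcodes carried at least 1 of them. Cd3g was found in 20 WT and 22 cKO barcodes, with 0 to 6 UMIs per barcode in WT (median 1) and 0 to 12 in cKO (median 2). Cd3d occurred in 22 and 23 barcodes and Cd3e in 22 and 20. The libraries overlapped for each of these genes.

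Trbc1 and Trbc2 encode alternative constant regions of the beta chain and lie 6848 bases apart on chromosome 6, at chr6:41538218-41539881 and chr6:41546730-41548352. At least 1 of them was present in 65 of 66 barcodes, and 41 carried both. Their coding parts are 95.6% identical over 518 bases, and the longest identical run is 259 bases, so the stretch is printed to show where reads can tell the copies apart. Coding bases 369 to 518, counted from 1 at the start of the annotated coding part, are given 5′ to 3′ with the 22 differing bases in capitals.
Trbc1: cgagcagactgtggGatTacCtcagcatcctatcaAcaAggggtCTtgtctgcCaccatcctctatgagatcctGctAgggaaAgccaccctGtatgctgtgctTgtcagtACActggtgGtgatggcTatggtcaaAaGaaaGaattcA
Trbc2: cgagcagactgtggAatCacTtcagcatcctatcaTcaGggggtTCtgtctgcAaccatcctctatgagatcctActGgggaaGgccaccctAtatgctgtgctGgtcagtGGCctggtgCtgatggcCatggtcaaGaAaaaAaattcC
Beyond the coding part, the 3′ ends share no run longer than 8 bases. The sources used here do not say how the authors' counting assigned reads from the identical stretch, so barcodes with both genes are uncertain as carriers of both.

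**Figure D1:**
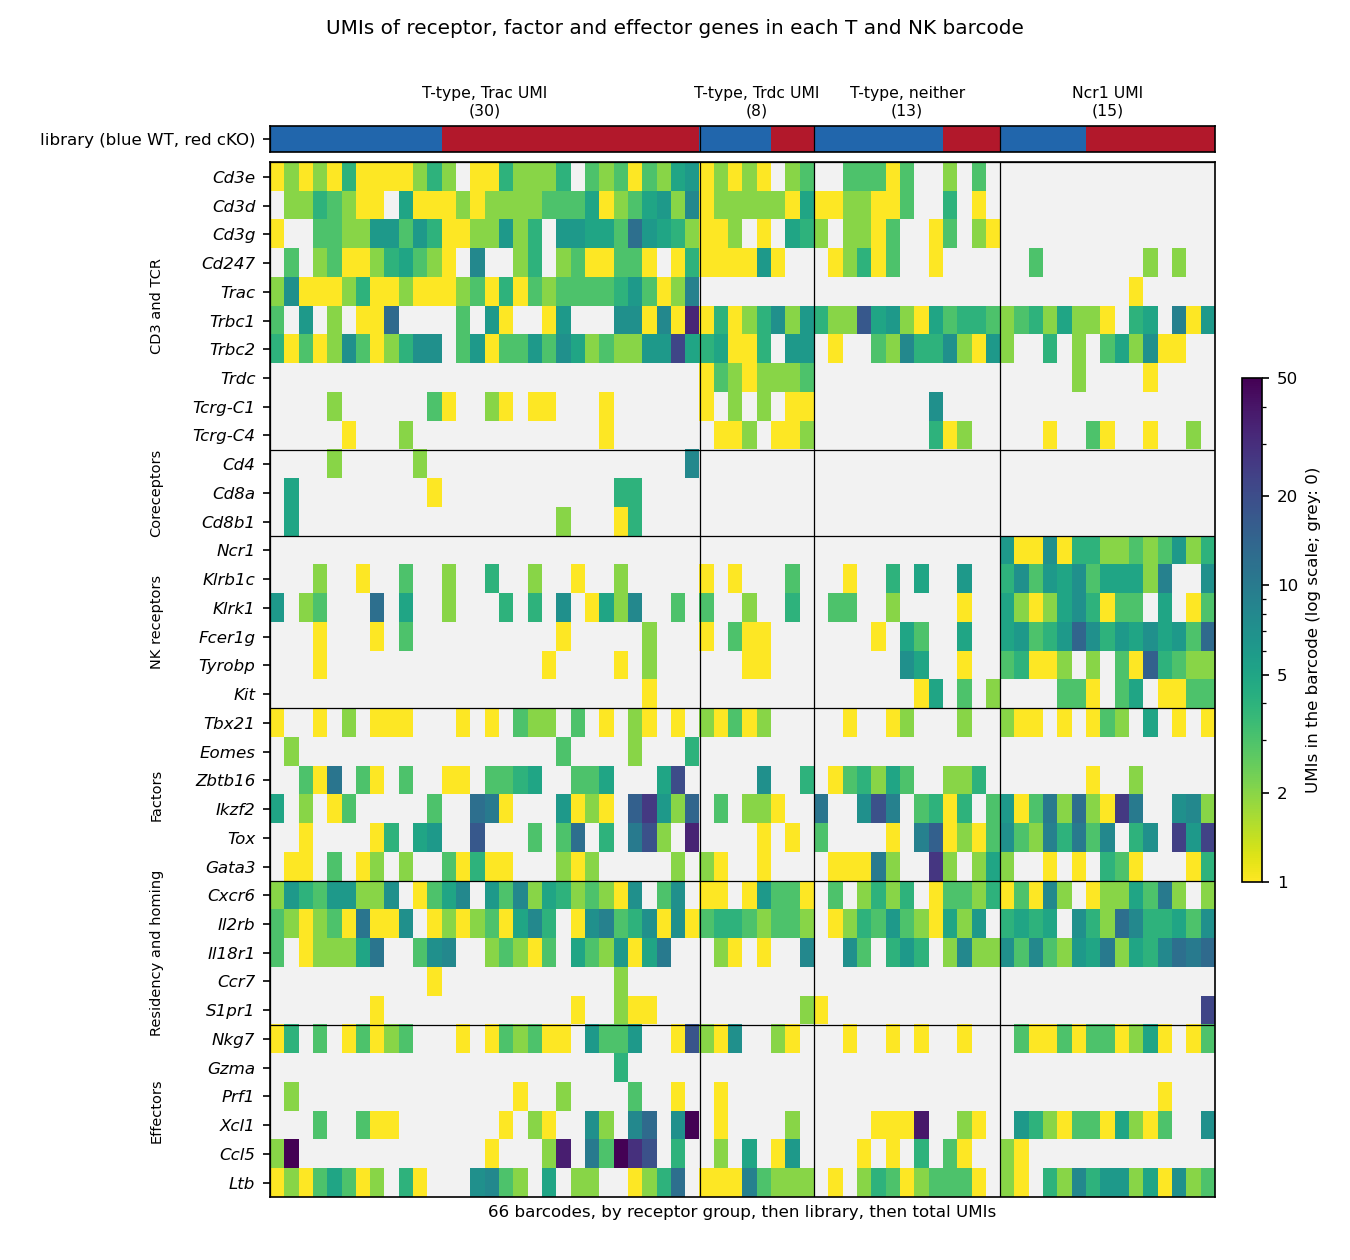
UMIs of receptor and lineage genes (rows) in each of the 66 T and NK barcodes (columns, ordered by receptor group, library and total UMIs), on a log colour scale capped at 50 UMIs with 0 in grey. Cd3 genes have UMIs in 49 of the 51 T-type columns and are at 0 in the 15 columns with a Ncr1 UMI.

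T-type barcodes carried at least 2 of Cd3e, Cd3d, Cd3g, Trbc1, Trbc2 and Trac and no Ncr1 UMI. They numbered 51 of 66 (77.3%, 65.3 to 86.7), 26 in WT and 25 in cKO. Trac, the alpha chain constant region, was found in 30 of them, 12 in WT and 18 in cKO. Trdc, the delta chain constant region, was found in 8 others, 5 in WT and 3 in cKO, and all 8 also carried a gamma chain constant gene. Gamma chain constant genes were not particular to that group. They were found in 13 of the 30 Trac barcodes and in 27 of all 51 T-type barcodes. No T-type barcode held both Trac and Trdc, which by the limit of 3 counts allows a share of up to 5.88% of 51, for barcodes with both UMIs and not for cells that express both. The remaining 13 carried neither, at a median of 4666 UMIs against 4728 in the Trac group.

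The coreceptors were sparse. Neither Cd4, Cd8a nor Cd8b1 was detected in 43 of 51 T-type barcodes (84.3%, 71.4 to 93.0), 22 of 26 in WT and 21 of 25 in cKO. Of the other 8, 5 carried Cd8a or Cd8b1 and 3 carried Cd4, and all 8 lay in the Trac group. Whether a barcode without these UMIs lacked the coreceptor was not detectable at this depth. Zbtb16, the transcription factor PLZF of innate-like T cells, had a UMI in 28 of 51 T-type barcodes and in 2 of the 15 barcodes with a Ncr1 UMI. Variable or joining genes gave 27 UMIs in 21 barcodes, of which the gamma gene Trgv2 gave 8 UMIs in 7 barcodes, 4 of them in the Trdc group.

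Ncr1 (chr7:4337724-4345164) was found in 15 barcodes, 6 in WT and 9 in cKO, and no Cd3 UMI was found in any of them. Of these, 8 carried at most 1 of the 6 receptor genes that define T-type and are called NK-type, 3 in WT and 5 in cKO. The other 7 carried both Trbc genes and were left unresolved. Among the 15, Trac was found in 1 barcode and Trdc in 2. A gamma chain constant gene was found in 5 of the 15, of which 2 were NK-type. Since Gzma was nearly absent, a barcode with Ncr1 could reach 3 rule genes only with a Trbc or Cd3 UMI, so a Trbc UMI in all 8 NK-type barcodes follows from the rule. Of the 32 barcodes with 2 rule genes that the rule left out, 8 carried Ncr1. The T-type share therefore depends on the rule.

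Some adaptor and receptor genes that the rule did not use divided the barcodes in a similar way. Fcer1g, a signalling adaptor of activating receptors, had a UMI in 15 of 15 barcodes with Ncr1 and in 13 of 51 T-type barcodes. Klrb1c, which encodes NK1.1, had one in 13 of 15 and 15 of 51. Tyrobp, the adaptor DAP12, had one in 13 of 15 and 9 of 51, and Kit, the stem cell factor receptor, in 9 of 15 and 5 of 51. Themis, Cd5 and Cd6, which act in T cell receptor signalling, were found in 35, 16 and 19 T-type barcodes and in none with Ncr1. Other signalling and Klr genes divided them less or not at all. Txk was found in 15 of 15 and 36 of 51, Thy1 in 11 and 41, and Cd28 in 4 and 29. Klrc1 was found in 5 of 15 and 13 of 51, Klrc2 in 6 and 16, and Klre1 in 4 and 11. Eomes, a factor of circulating NK cells, was at 0 UMIs in all 15, while the related Tbx21 was found in 10. Il7r was found in 11 of 15 and 21 of 51, and Itga1 in 8 of 15 and 14 of 51. NK-type is a name for the Ncr1 rule, and whether these were NK cells or other innate lymphoid cells was not tested. These counts compare groups made by UMIs in the same barcodes and carry no test.

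Several genes that the rule did not use were found in most barcodes of both groups. The leukocyte phosphatase gene Ptprc was present in 66 of 66 barcodes and the adaptor Skap1 in 65. Il2rb, a receptor chain for interleukins that sustain NK and memory cells, was found in 61 and Cxcr6, a chemokine receptor of tissue-resident lymphocytes, in 56. Il18r1, a receptor chain for an inflammatory interleukin, was found in 50, and 41 barcodes carried Cxcr6, Il2rb and Il18r1 together.

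The other classes had median depths of 4341 (WT) and 3825.5 UMIs (cKO) for B-rule, 7035.5 and 9049 for neutrophil-rule, 9876.5 and 8171 for macrophage-rule and 13544.5 and 59829 for stromal-rule barcodes. To compare classes at equal depth, barcodes were thinned to 3300 UMIs, which kept 59 of the 66 and left out 7. Il2rb was then in 83.1% of T and NK barcodes, 0% of B-rule, 0% of neutrophil-rule, 0.234% of macrophage-rule and 0.185% of stromal-rule barcodes. Il18r1 was in 78.0% and, among the other classes, was highest in neutrophil-rule barcodes at 5.23%. Ifngr1, the interferon gamma receptor, was in 88.1% and was also common elsewhere, up to 40.2% in macrophage-rule barcodes. Unthinned, Il2rb was in 92.4%, Il18r1 in 75.8% and Ifngr1 in 90.9% of T and NK barcodes.

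**Figure D2:**
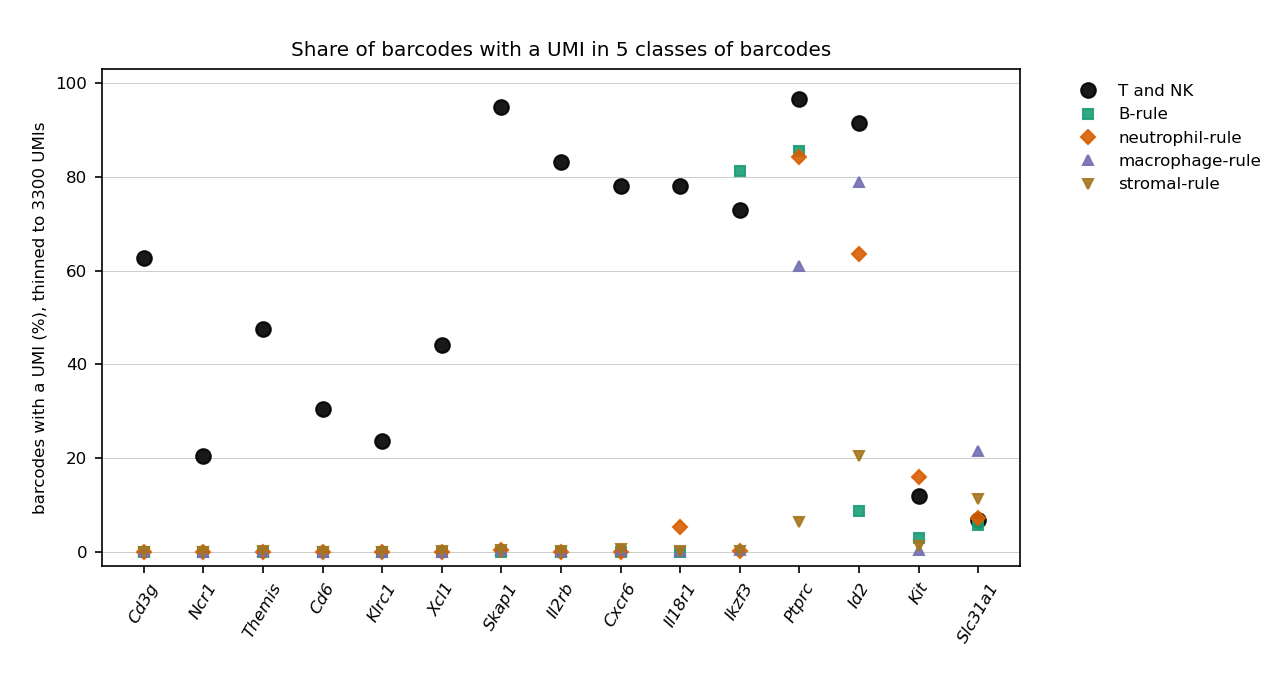
Share of barcodes with a UMI (percent) of 15 genes in T and NK, B-rule, neutrophil-rule, macrophage-rule and stromal-rule barcodes, each thinned to 3300 UMIs. Skap1, Il2rb and Cxcr6 were at 78.0% or more in T and NK barcodes and at most 0.493% in the other classes.

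The 15 genes with the highest level relative to the next highest class were Ncr1, Klrc1, Klre1, Il2rb, Themis, Cd3g, Cd6, Cd40lg, Fasl, Klrc2, Xcl1, Trbc1, Klri2, Cd7 and Sh2d1a. Ncr1, Cd3g and Trbc1 are rule genes, so their place here follows in part from the rule. The 15 include inhibitory and activating Klr receptors, and the chemokine gene Xcl1. Of the 17 Klr genes listed, 16 lie in 1 stretch of chromosome 6 (chr6:128705836-130386874), the NK gene complex. The 250 bases before an annotated RefSeq start of 3 of these genes are printed because members of the group share a letter motif there. RefSeq promoter entries in GRCm38.p6 were found for 8 of the 15 genes. The RUNX motif TGTGGT, searched on both strands and read as ACCACA on the other, is in capitals.
Xcl1: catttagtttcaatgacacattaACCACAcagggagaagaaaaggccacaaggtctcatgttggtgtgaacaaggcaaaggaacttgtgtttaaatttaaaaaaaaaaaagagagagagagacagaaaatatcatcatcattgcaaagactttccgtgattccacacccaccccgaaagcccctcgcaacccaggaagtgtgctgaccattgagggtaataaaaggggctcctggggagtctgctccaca
Klrc2: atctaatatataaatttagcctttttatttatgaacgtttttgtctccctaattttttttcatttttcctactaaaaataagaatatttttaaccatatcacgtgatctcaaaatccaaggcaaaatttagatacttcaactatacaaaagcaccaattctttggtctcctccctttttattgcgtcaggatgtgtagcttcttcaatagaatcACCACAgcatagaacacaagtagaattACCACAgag
Ncr1: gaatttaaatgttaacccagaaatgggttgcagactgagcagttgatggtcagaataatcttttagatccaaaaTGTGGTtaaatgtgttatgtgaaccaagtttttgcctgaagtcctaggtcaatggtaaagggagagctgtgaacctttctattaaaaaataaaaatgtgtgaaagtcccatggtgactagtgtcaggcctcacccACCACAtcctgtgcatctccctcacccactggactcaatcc
The windows are chr1:164935523-164935772 on the minus strand, chr6:129660597-129660846 on the minus strand and chr7:4337465-4337714 on the plus strand. In GENCODE M21 the Klrc2 gene reaches 129660689, inside its window, so both capitalised matches lie within that gene model, and Xcl1 reaches 164935527. The motif was present for 5 of the 8 genes (Klrc1, Klrc2, Klre1, Ncr1 and Xcl1), against 15.9% of 27025 genes with windows of the same length. Of these 5, Ncr1 is a rule gene, and Klrc1, Klrc2 and Klre1 are neighbours in that stretch of chromosome 6. A GATA motif, AGATAA, was present for 1 of 8 (11.4% of genes), a T-box motif, TCACACC, for 1 of 8 (3.84%) and an ETS motif, CCGGAAG, for 0 of 8 (7.83%). These matches are letters in a window and not binding sites, and the motifs were chosen after the genes were known.

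Few barcodes carried 2 of the genes of recirculating lymphocytes. Ccr7, a homing receptor for lymph nodes, was in 2 barcodes, and S1pr1, which guides exit into blood, was in 8. Lef1 and Tcf7, factors of naive and memory T cells, were found in 41 and 30 barcodes.

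Granzyme and perforin genes were rare. Gzma, 1 of the marker genes of the label, had 4 UMIs in 1 barcode, Gzmb had 3 UMIs in 1 and Prf1, perforin, was in 7. At least 1 of Gzma, Gzmb, Gzmc, Gzmk and Prf1 was present in 11 of 66 barcodes, 4 of 32 in WT and 7 of 34 in cKO. Other genes of the cytotoxic granule list were common, with Nkg7, a granule membrane gene, in 43 barcodes, Ctsw, a cysteine protease, in 43 and Srgn, a granule proteoglycan, in 52. The label's markers Cd3e, Cd3g, Trbc2 and Nkg7 were thus common in the barcodes, and Gzma was not.

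Chemokine transcripts were concentrated in few barcodes. Ccl5 was found in 22 barcodes, of which 6 had at least 10 UMIs and 4 of these also carried a Cd8 gene. Xcl1 was found in 33 barcodes, 3 of them with at least 10 UMIs. Ltb, a membrane lymphotoxin, was found in 53.

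Barcodes that also carried markers of another lineage were looked for before the libraries were compared, with a limit of 45 marker UMIs per 10000 set after the values were seen. A WT T-type barcode with 6885 UMIs held 209 S100a8 and 326 S100a9 UMIs, neutrophil genes. A WT unresolved barcode with 14388 UMIs held 319 Pf4 and 120 Ppbp UMIs, megakaryocyte genes. A cKO NK-type barcode with 44720 UMIs held 78 Edn1, 65 Emcn and 37 Cdh5 UMIs, endothelial genes, and alone gave 20.5% of the UMIs of cKO members. Ratios and list medians between the libraries are given with and without these 3 barcodes. Without them, the megakaryocyte list was at 0 to 3.87 UMIs per 10000 in WT and 0 to 5.70 in cKO, with 5 and 7 of its 8 genes at 0.

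**Figure D3:**
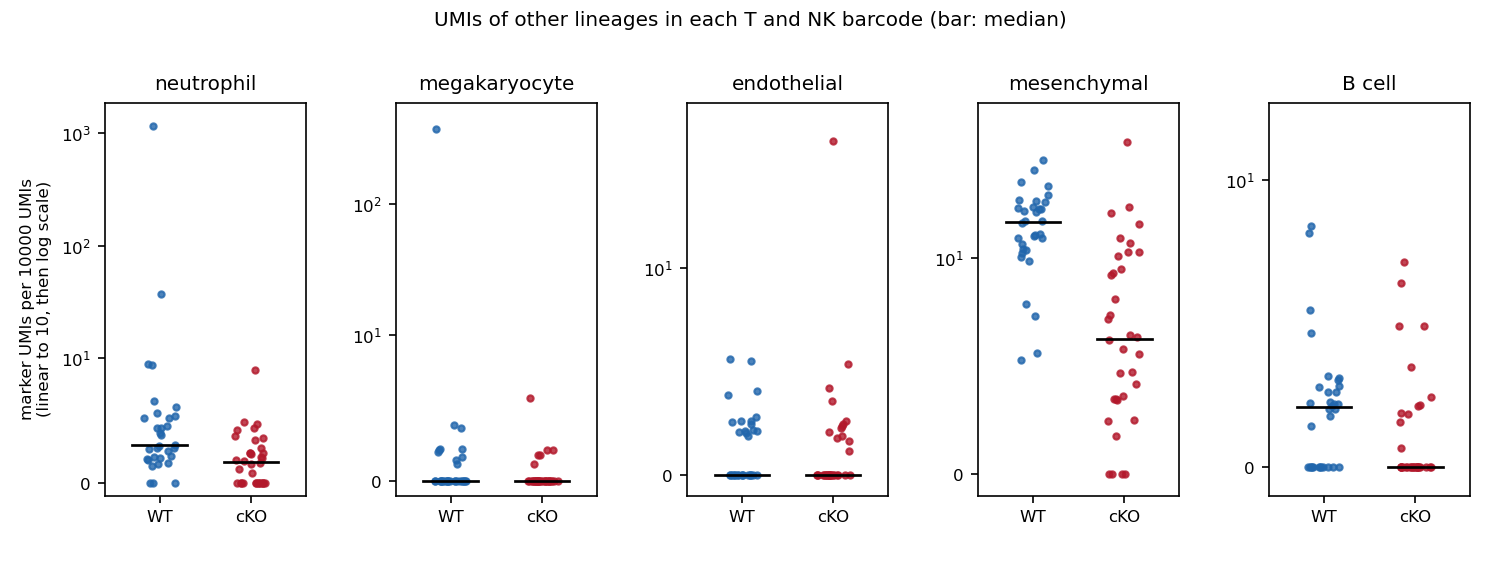
Marker UMIs per 10000 (linear to 10, then log) of other lineages in each T and NK barcode, by library, with bars at the medians. Single barcodes stand apart for neutrophil (1165), megakaryocyte (368) and endothelial (48.3) markers.

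Stromal transcripts were at a higher level in the WT barcodes. The mesenchymal list had a median of 15.4 UMIs per 10000 in WT (5.31 to 32.2) and 6.27 in cKO (0 to 39.6), with Dcn and Lum at 0 in both. Macrophage markers had medians of 10.9 and 7.15, and all 15 were detected in WT and 13 in cKO. Their part in the differences below was not tested.

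Summed over the barcodes of each library, 4049 genes had at least 20 UMIs. Of these, 270 (6.67%) were at least 2-fold higher in cKO and 221 (5.46%) at least 2-fold lower, with a median log2 ratio of -0.03. Without the 3 barcodes of another lineage, 3422 genes remained, with 148 (4.32%) higher and 157 (4.59%) lower, 8.91% in all. Of the 491 genes past 2-fold with all barcodes, 28.3% had 50% or more of their UMIs in 1 barcode, against 3.85% of all 4049 genes. Of 152 compared members of 18 lymphocyte and pathway lists, 6 were at least 2-fold higher (Cd6, Id3, S1pr1, Klrb1f, Tnfrsf9 and Egr1) and 7 lower (Tcrg-C1, Klri2, Itga1, Stmn1, Mki67, Top2a and Psmb9). With all barcodes, this share was below the 12.1% of all genes past 2-fold in either direction. Without the 3 barcodes, 8 of 143 members were higher (5.59%, against 4.32% of all genes) and 6 lower (4.20%, against 4.59%). Zap70, Sh2d2a, Il4ra, Tnfrsf18 and H2-T23 were past 2-fold, all higher, only in that setting.

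**Figure D4:**
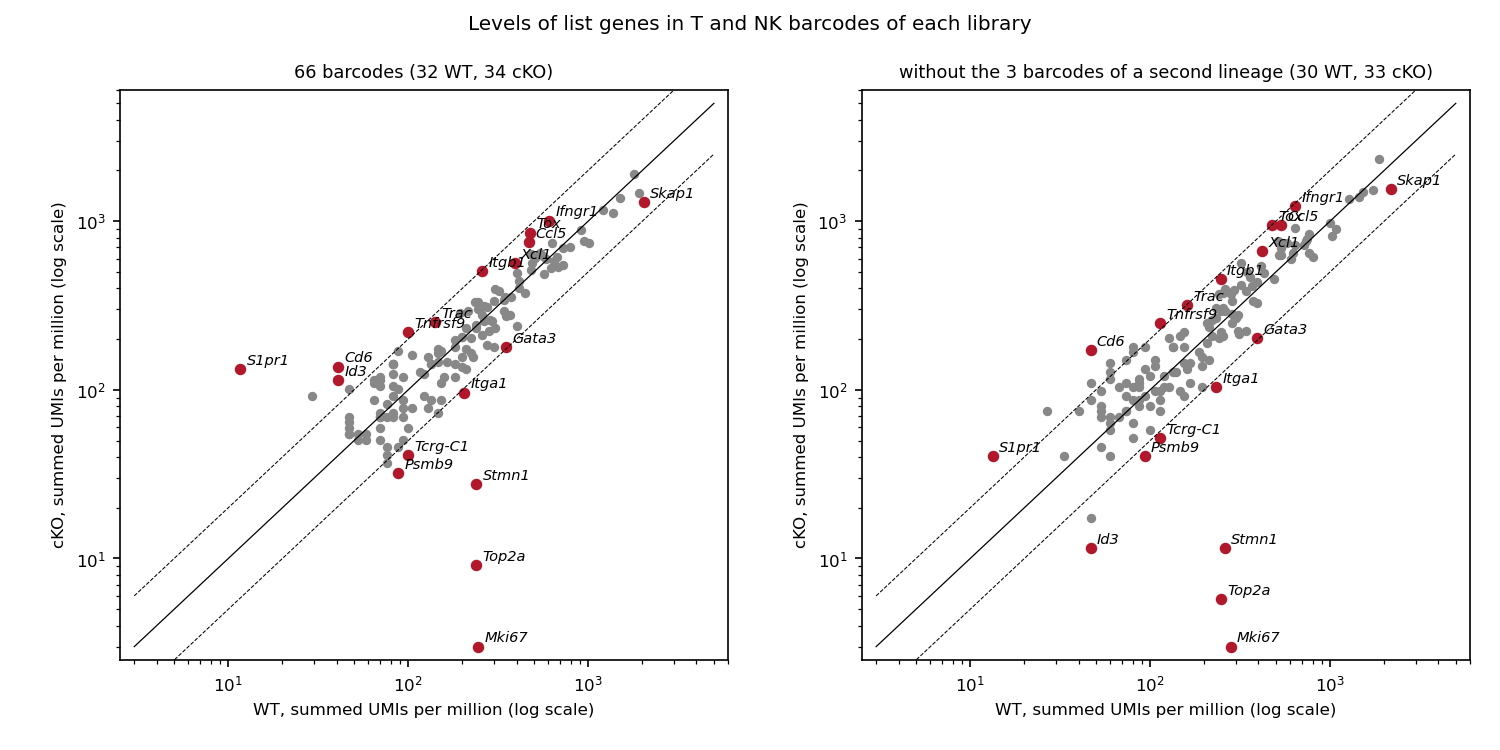
Summed UMIs per 1000000 of 152 list genes in WT (x axis) and cKO (y axis), log axes, values under 3 drawn at 3, with all 66 barcodes (left) and without the 3 that carried another lineage (right). The solid line is equality and the dashed lines are 2-fold, and 13 genes lie past 2-fold at left.

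By list, the first value is the median log2 ratio with all 66 barcodes, where all genes lay at -0.03, and the second the median without the 3 barcodes. The TCR complex had 0.04 over 9 genes and 0.26, and TCR signalling and costimulation 0.09 over 21 and 0.25. NK receptors and adaptors had -0.14 over 15 and 0.07, and cytotoxic granule genes -0.11 over 6 and 0.08. Both lists turned direction with those barcodes. Cytokines and chemokines had 0.04 over 6 and 0.39, with 3 of 6 and then 6 of 6 higher in cKO. Cytokine receptors had 0.26 over 13 and 0.38, with 9 and then 10 higher. Among the lineage lists, CD4, CD8 and regulatory genes had 0.48 over 2 and 0.69, transcription factors 0.04 over 16 and 0.07, and the ILC2 and ILC3 list -0.39 over 3 and -0.37. Naive and recirculating genes had 0.24 over 5 and 0.16, homing receptors 0.00 over 13 and 0.16, and activation and checkpoint genes 0.01 over 8 and 0.19. Immediate early genes had 0.16 over 9 and -0.01, which also turned direction. MHC class I had -0.16 over 10 and -0.08, the interferon response 0.02 over 8 and 0.21, the antioxidant response -0.39 over 9 and -0.28, and copper handling and metallothioneins -0.45 over 4 and -0.15. The cell cycle list had -3.22 over 4 genes and -3.84, and all 4 were lower in cKO in both settings.

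Single genes are given with the value without their richest barcode, because a few barcodes held many UMIs. Skap1, the adaptor downstream of the T cell receptor, had 349 UMIs in 32 WT barcodes (3 to 28 each, median 10) and 283 in 33 cKO barcodes (0 to 35, median 7). Its ratio of levels, cKO over WT, was 0.64 (95% interval 0.54 to 0.75), 0.71 without the 3 barcodes and 0.57 without its richest barcode. The ranges of the libraries overlapped.

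Ifngr1 had 104 UMIs in 29 WT barcodes (median 2.5, highest 10) and 220 in 31 cKO barcodes (median 5.5, highest 16). The ratio was 1.66 (1.31 to 2.12), 1.92 without the 3 barcodes and 1.58 without its richest barcode. Tox, a factor of T cell and innate lymphoid development, had 81 UMIs in 16 WT barcodes and 187 in 21 cKO barcodes. Its ratio was 1.81 (1.39 to 2.38), 2.00 without the 3 barcodes, 1.57 without its richest barcode and 0.79 in NK-type barcodes alone. The NK-type value kept the cKO barcode with endothelial genes. Cd6, a costimulatory receptor, had 7 UMIs in 6 WT barcodes and 30 in 13 cKO barcodes, a ratio of 3.36 (1.45 to 9.07), 3.70 without the 3 barcodes and 2.63 without its richest barcode.

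The receptor genes did not share 1 direction. Trac had 24 UMIs in 12 WT barcodes and 55 in 19 cKO barcodes, a ratio of 1.80 (1.09 to 3.04), 1.98 (1.21 to 3.34) without the 3 barcodes and 1.59 (0.95 to 2.72) without its richest barcode. Cd247, the zeta chain, was lower in cKO, with 51 UMIs in 22 WT and 39 in 16 cKO barcodes, a ratio of 0.60 (0.38 to 0.93) and of 0.66 (0.42 to 1.02) without the 3 barcodes. Without its richest barcode, Cd247 was at 0.48 (0.30 to 0.77). Tcrg-C1, a gamma chain constant region, had 17 and 9 UMIs, a ratio of 0.42 (0.16 to 0.98) and of 0.46 (0.18 to 1.09). The rule genes are given as a description. Cd3e was at 1.01 and 1.21 without the 3 barcodes, Cd3d at 1.23 and 1.46, Cd3g at 1.31 and 1.45 (1.01 to 2.08), Trbc1 at 1.03 and 1.13 and Trbc2 at 1.19 and 1.48 (1.11 to 1.99). Without their richest barcode, Cd3e was at 0.95, Cd3d at 1.15 and Trbc1 at 0.81. Cd3g was then at 1.16 (0.81 to 1.69) and Trbc2 at 1.02 (0.77 to 1.37). With the 3 barcodes also left out, Cd3g was at 1.29 (0.89 to 1.88) and Trbc2 at 1.28 (0.95 to 1.74).

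Several ratios rested on 1 barcode. Xcl1 had 67 UMIs in 14 WT and 123 in 19 cKO barcodes, a ratio of 1.44 (1.06 to 1.97) and of 1.59 without the 3 barcodes. A cKO T-type barcode with 11983 UMIs held 55 of them, and without it the ratio was 0.84 (0.59 to 1.20). Ccl5 had a ratio of 1.61 (1.22 to 2.13), 1.77 without the 3 barcodes, and 6.99 without a WT barcode that held 62 of the 80 WT UMIs. Gata3, a T cell and type 2 lymphocyte factor, had a ratio of 0.51 (0.33 to 0.78), 0.51 without the 3 barcodes, and 0.84 without a WT barcode of 16835 UMIs that held 27 of its 60 WT UMIs.

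Among the list members past 2-fold with all barcodes, Id3 (2.80) and S1pr1 (11.4) rested on the cKO barcode with endothelial genes. Without the 3 barcodes their ratios were 0.25 and 3.02. Without that endothelial barcode alone, Id3 had 7 WT and 2 cKO UMIs, a ratio of 0.28 (0.03 to 1.48). S1pr1 then had 2 and 7 UMIs, a ratio of 3.45 (0.66 to 34.1). Both genes were under the minimum of UMIs for compared genes in either setting, so their direction was not settled. The others are given with all barcodes, without the 3, and without the richest barcode. Tnfrsf9, a costimulatory receptor, was 2.21, 2.18 and 1.52. Itga1, an integrin of tissue-resident cells, was 0.47, 0.44 and 0.66, and Klri2 was 0.48, 0.86 and 0.13. Tcrg-C1 was 0.64 without its richest barcode. Egr1 was 3.14, 2.81 and 2.57, Klrb1f 2.16, 2.35 and 1.81, and Psmb9, an immunoproteasome subunit, 0.37, 0.43 and 0.41. Klri2 and Egr1 were under the minimum of UMIs without the 3 barcodes and without their richest barcode. The richest barcode of Egr1 was also the cKO barcode with endothelial genes. Without the 3 barcodes and its next richest, Egr1 had 4 WT and 8 cKO UMIs, a ratio of 1.78 (0.48 to 8.10). Klri2, without the 3 and its richest, had 8 and 2 UMIs, a ratio of 0.23 (0.02 to 1.14). Only Klrb1f and Psmb9 had no more than 4 UMIs in their richest barcode. Itgb1, an integrin chain not past 2-fold, was 1.96, 1.84 and 1.77.

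Proliferation genes were more often present in WT barcodes. Mki67 or Top2a had a UMI in 13 of 32 WT (40.6%, 23.7 to 59.4) and 2 of 34 cKO barcodes (5.88%, 0.720 to 19.7). These include the WT barcode with megakaryocyte genes (4 Top2a UMIs) and the cKO barcode with endothelial genes (1 Top2a UMI). After thinning to 3300 UMIs the counts were 8 of 28 and 0 of 31, the latter with an upper limit of 11.2%. In B-rule barcodes the thinned shares were 35.5% in WT and 2.63% in cKO, and in stromal-rule barcodes 48.1% and 35.6%. In neutrophil-rule barcodes they were 57.7% and 58.6%, and in macrophage-rule barcodes 39.9% and 40.5%.

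These UMIs were unevenly spread. Mki67 had 42 UMIs in 6 WT barcodes and none in cKO, and a WT T-type barcode with 16835 UMIs held 37 of them. Without it, Mki67 had 5 UMIs in WT and 0 in cKO, Top2a 11 and 2, and Stmn1 10 and 6. With the 3 barcodes of another lineage also left out, Top2a had 7 and 1 and Stmn1 8 and 2. At least 5 of 18 cycle genes were present in 3 WT and 1 cKO barcode. The mesenchymal list was also higher in the WT barcodes (15.4 against 6.27 UMIs per 10000), and its part in these shares was not tested.

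**Figure D5:**
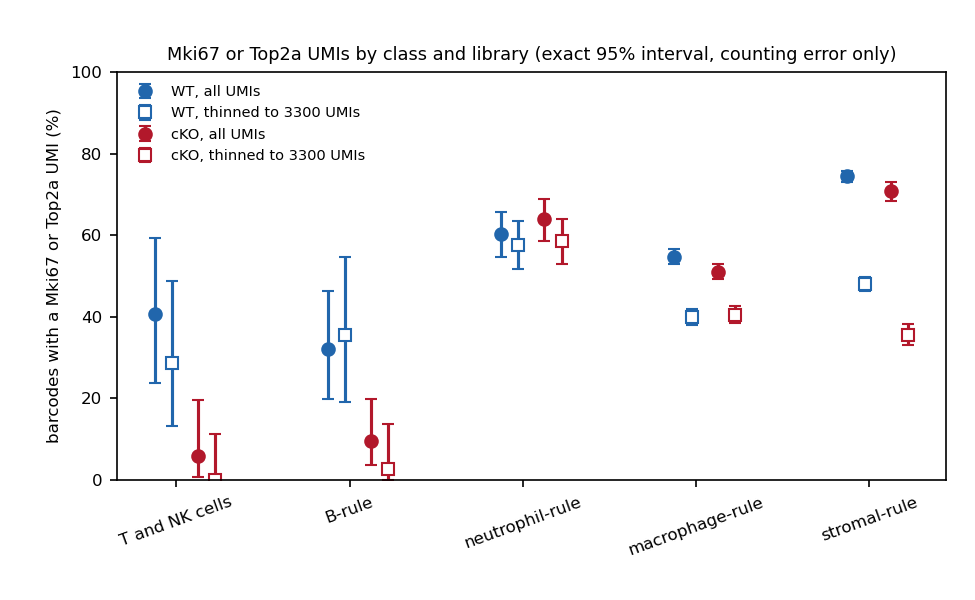
Share of barcodes with a Mki67 or Top2a UMI (percent, exact 95% intervals) by class and library, with all UMIs (filled) and thinned to 3300 UMIs (open). T and NK barcodes were at 40.6% in WT and 5.88% in cKO, and B-rule barcodes at 32.1% and 9.68%.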

How the data were processed

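Adherent marrow cells of 1 WT and 1 cKO library were profiled with the 10x Genomics Chromium 3' v3 kit. The deposited values are raw counts of UMIs, 1 per gene and barcode. Per the file headers, Cell Ranger 7.1.0 made them. The submitters' processing notes name mm10 (GRCm38) and Seurat. The sources used here do not say if intronic reads count.

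Barcodes needed at least 500 genes, 1000 UMIs and at most 15% mitochondrial UMIs. Scrublet marked 2 barcodes per library at its automatic threshold, which had not worked, so none was removed (an alternative removed 534 WT and 243 cKO barcodes). UMIs were summed per library and scaled to 1000000. With 1 library per group there is no test across samples. Intervals are exact (Clopper-Pearson, conditional binomial), at 95%. Log2 ratios used a prior of 10 per 1000000, and genes needed 20 UMIs. Comparison classes were B-rule (3 B cell genes), neutrophil-rule, macrophage-rule and stromal-rule barcodes.

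The members and lists were chosen with earlier results of these data known. Named genes were the rule genes, the 4 highest and all 2-fold members of each list, the 10 highest and 10 lowest ratios and the 15 most specific genes; others were chosen after their values were seen, and some genes are not reported here. The lineage limit, the 9 support genes, the receptor groups and the motifs were also chosen then. Ratios and intervals were checked on simulated data with known answers, drawn as library sums without barcodes. That check does not cover UMIs concentrated in 1 barcode, which occur in these data. Tools were Python 3.11.15, scipy 1.17.1, scanpy 1.11.5, R 4.3.3 and edgeR 4.0.16 (TMM factors only).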

Additional observations from a re-analysis of the deposited data

How the results depend on the processing

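Alternatives covered the cell filter, the number of rule genes, the score limits, doublets, other scalings, equal weight per cell, the minimum of UMIs, the prior and single cell types. Leaving out the 3 barcodes of another lineage or a gene's richest barcode, and the denominator under the stromal limit, were added after the data were seen. Of 141 recomputed values of shares, group sizes and gene counts, 120 moved by less than their interval or 1.5 times and 21 moved. With at least 2 rule genes the shares were 0.612% (WT) and 0.872% (cKO); under the stromal limit 0.852% and 0.905%. With at least 4 rule genes the cKO share was 0.418%, T-type 89.4% and NK-type 0%, with 131 genes higher and 13 list members higher and 2 lower. No NK-type barcode carried Gzma, so none could have more than 3 rule genes. The NK-type 0% therefore follows from the rule, which also raises the T-type share. Without the 3 barcodes 148 genes were higher. With no minimum of UMIs, 3042 genes were higher and 2573 lower, and 38 and 41 list members. Equal weight gave 10 list members higher. In T-type barcodes alone 121 genes and 13 list members were higher. In NK-type barcodes alone 89 genes and 19 list members were lower, and the median over all genes was 0.12. These NK-type values rest on 3 WT and 5 cKO barcodes, with the cKO barcode of 44720 UMIs and endothelial genes kept in.

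Of 433 recomputed ratios of 30 named genes, 399 were counted as unchanged, 24 as moved and 10 as reversed. Those 10 do not hold every change of direction. Trbc1 and Cd3e were slightly higher in cKO with all barcodes, and their ratios were 0.813 and 0.951 without their richest barcode. In NK-type barcodes alone, Tox was 0.79, Ccl5 0 (1 UMI), Xcl1 0.36, Tnfrsf9 0.89 and Crtam 0.22. These NK-type ratios kept the cKO barcode with endothelial genes, and its part in them was not tested. Id3 was 0.25 without the 3 barcodes, 0.63 with equal weight and 0.30 in T-type barcodes. It was 0.28 without its richest barcode, which left 7 WT and 2 cKO UMIs. Xcl1 was 0.84 without its richest barcode. The cause was not tested beyond those barcodes. Depth limits what the absence of a UMI shows. No paired analysis was possible because each genotype was 1 library.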

Other observations

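Without the 3 barcodes of another lineage, 5 of the 10 highest and 8 of the 10 lowest ratios still had 50% or more of their UMIs in 1 barcode. The genes below were named after their values were seen, and their counts leave those 3 barcodes out. Among the highest, Arid5a, an RNA-binding regulator of inflammatory transcripts, had 2 WT and 20 cKO UMIs in 14 barcodes. Zfp52, a zinc finger gene, had 4 and 23 UMIs in 20 barcodes, and Etv3, an ETS family repressor, 3 and 21 in 14. In none of these 3 genes did 1 barcode hold more than 18.2% of the UMIs. Irf8, an interferon regulatory factor, had 4 and 28 UMIs in 13 barcodes, a ratio of 6.05, and 2.78 without a cKO barcode that held 16 of them. Crtam, an adhesion receptor of activated NK and CD8 cells, had 2 and 22 UMIs in 6 barcodes, and 14 of them lay in 1 cKO barcode.

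At the other end, Rnf213, an interferon-induced ubiquitin ligase, had 20 WT and 3 cKO UMIs in 15 barcodes, and Ralgapb, a subunit of a Ral GTPase activator, 23 and 3 in 14. The 8 with 50% or more of their UMIs in 1 barcode were Top2a, Hist1h1b, Mgll, Stmn1, Mki67, Stxbp6, Mir155hg and Atad2. With all 66 barcodes, each of the 10 highest and 10 lowest ratios had between 69.8% and 99.2% of its UMIs in 1 barcode.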
